A study of Mus musculus with 9 samples.

Results

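The repeats described here are the mouse copies of ERVK endogenous retroviruses that are not intracisternal A-particle (IAP) elements. They were taken from the deposited repeat table by its own annotation, as rows of class LTR and family ERVK whose name does not begin with IAP. This gave 2476 copies in 221 names, of 38385 copies in 1042 names in the whole table. A name is a repeat family, and a copy is 1 annotated stretch of it in the genome. Of the 221 names, 75 had 10 or more listed copies and held 1931 of the copies, and these are described by name. The other 146 names, with 545 copies, enter the counts over single copies. At the limit, 7 names had exactly 10 copies and 5 had 9. A further 17 copies whose family is written with a question mark were not used.

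ERVK elements are remnants of betaretrovirus-like proviruses. A complete element has an internal part with the viral genes between a pair of long terminal repeats (LTRs), which hold the promoter and the polyadenylation signal, and recombination between the LTRs leaves a solitary LTR behind. Early transposons (ETn) and their coding relatives, the MusD elements, still insert into the mouse genome and are transcribed in the early embryo, and MMERVK10C is known as an element that is released when TRIM28 or SETDB1 is lost. In embryonic stem cells (ESCs) such elements are held silent by zinc-finger proteins that recruit TRIM28 and SETDB1 to deposit H3K9 trimethylation, and by DNA methylation, which DNMT1 maintains through replication.

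The libraries were made from 3 lines of J1 mouse ESCs. WT is the wild type. 1KO is Dnmt1-/-. 1KO+1CI (CI in the plots) is Dnmt1-/- and carries in addition a CAG-promoter transgene for catalytically inactive DNMT1 (C1229S), linked to zeocin resistance. 1KO was compared with WT, and 1KO+1CI with 1KO. In the latter, an effect of the inactive protein cannot be told apart from clone or selection. In the former, loss of DNMT1 cannot be told apart from other differences between the lines. The 1KO+1CI columns bear 1 number, presumably of a single clone, that the sources used here do not explain. All lines were kept on mitomycin C-treated fibroblast feeders in serum with LIF, and were sampled at day 0 in that state and at days 2 and 4 on the way to epiblast-like cells, through 1 day as embryoid bodies without LIF and then as adherent cells. There was 1 library for each line and day, 9 in all, from poly(A) RNA.

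Depth, as estimated from the steps of the values, ran from about 20205529 to 28075044 counted reads over the libraries, and the median member copy had 9 reads in a library, so that single copies carry a large counting error. Dnmt1 lay between 48.5 and 80.4 FPKM in WT, between 12.3 and 17.4 in 1KO and between 129 and 315 in 1KO+1CI, where the transgene adds to it. The 9 of 10 listed fibroblast genes found in the gene table had day 0 sums of 109 FPKM (WT), 227 (1KO) and 268 (1KO+1CI), and sums between 15.4 and 34.2 at the later days, and none of the 9 was at 0. The 8 naive pluripotency genes summed to between 748 and 897 FPKM at day 0 and between 111 and 204 at day 4. The 5 formative genes went the other way, from between 122 and 143 FPKM to between 396 and 589. The primitive endoderm genes summed to between 36.2 and 63.5 FPKM in WT, between 47.8 and 72.2 in 1KO and between 70.4 and 118 in 1KO+1CI. Col4a1 and Lamb1 made up most of these sums, at 26.3 and 35.0 FPKM in WT at day 0. Gata6, Sox17, Sox7 and Col4a1 were higher in 1KO than in WT at each day, but Col4a1 at day 2 by only 0.006 on the log2 scale. Sox17 and Sox7 were scarce, between 0.058 and 0.513 FPKM in WT and 1KO. Gata4 was lower each time (-0.25, -0.26 and -0.39), and Foxa2 and Lamb1 changed direction between days. The 4 primitive streak genes found in the table reached 14.5 FPKM at day 4 in WT and 74.1 and 87.1 in 1KO and 1KO+1CI. The part of these cell types in the repeat levels was not tested, and fewer cells of a type and less RNA per cell cannot be told apart in such samples.

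FPKM scales the reads of a copy by its length and by the depth of the library. The level of a name was taken as log2(FPKM + 1), with FPKM averaged over its copies in the table, and a difference between libraries is a difference in that level. No value in the table is 0 and the lowest is 0.006 FPKM, so copies with no read in any 1 library seem to be missing, among them perhaps copies that are silent in WT. Typical repeats were not equally abundant in the libraries. The median ratio over all copies was lower by 0.16 on the log2 scale in 1KO than in WT at day 0 (-0.16), higher by 0.15 in 1KO+1CI than in 1KO at day 0, and higher at day 2 than at day 0 by 0.22, 0.37 and 0.23 in WT, 1KO and 1KO+1CI. At day 4 it stood at -0.13, 0.09 and -0.11 against day 0 in the WT, 1KO and 1KO+1CI lines. The same ratio over genes moved by at most 0.05. Values relative to this shift of all repeats are given beside those that it turns.

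ERVK transcripts outside IAP were unequal in abundance, with an ETn name at the top and another at the bottom. Mean FPKM over the 9 libraries ran from 0.417 for ETnERV3-int to 57.2 for MMETn-int, with a median of 1.78, against 2.90 over the 371 names of the table with 10 or more copies. It was 20 or more in 6 names, between 5 and 20 in 8, between 2 and 5 in 21 and under 2 in 40. The 10 most abundant names were MMETn-int (57.2), RLTR19-int (41.9), ERVB4_1C-LTR_Mm (35.0), RLTR13G (27.9), ETnERV-int (27.0), ERVB7_1-LTR_MM (26.6), RLTR42-int (11.7), RLTR12C (10.9), RLTR20C1_MM (8.72) and RLTR31D_MM (8.47). Single copies can carry a name. In the median name the highest copy held 24.2% of all FPKM, with a range over names from 5.66% to 75.7%, and it held over 50% in 5 names. The 5 highest copies of all were MMETn-int copies 14, 23 and 54 and RLTR19-int copies 5 and 81.

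In 1KO most of these names stood within 0.25 of their WT level on the log2 scale, as did a larger share of all names, and those that were past 0.5 differed from day to day. At day 0, RLTR9E, MurERV4_19-int and RLTR45-int were over 0.5 (3 of 75 names, where 3.23% of all 371 names were) and RLTR42-int was under -0.5 (1 of 75, against 1.08%). At day 2, RLTR12BD_Mm, MMERVK10C-int, RLTR9E and RMER16-int were over 0.5 (4 of 75, against 3.5%) and RLTR15 was under -0.5 (1 of 75, against 0.27%). At day 4, RMER16-int, RMER17C-int and RLTR20C2_MM were over 0.5 (3 of 75, against 3.23%) and none was under -0.5, where 0.539% of all names were. Thus 10 different names passed the threshold at some day and none at all 3 days. The median over the 75 names was -0.04, -0.04 and 0.11 at days 0, 2 and 4, against -0.05, -0.04 and 0.03 over the 371 names, and within 0.25 of 0 lay 56, 57 and 54 of the 75 (74.7%, 76% and 72%), against 79.2%, 80.6% and 83.3% of the 371. Relative to the shift of all repeats the medians over the 75 names were 0.05, -0.03 and 0.07, so that the day 0 median turned. Over all 3 days, 9 of the 75 names were higher in 1KO than in WT each time, against 12.4% of the 371, and 10 were lower each time, against 22.1%.

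**Figure D1:**
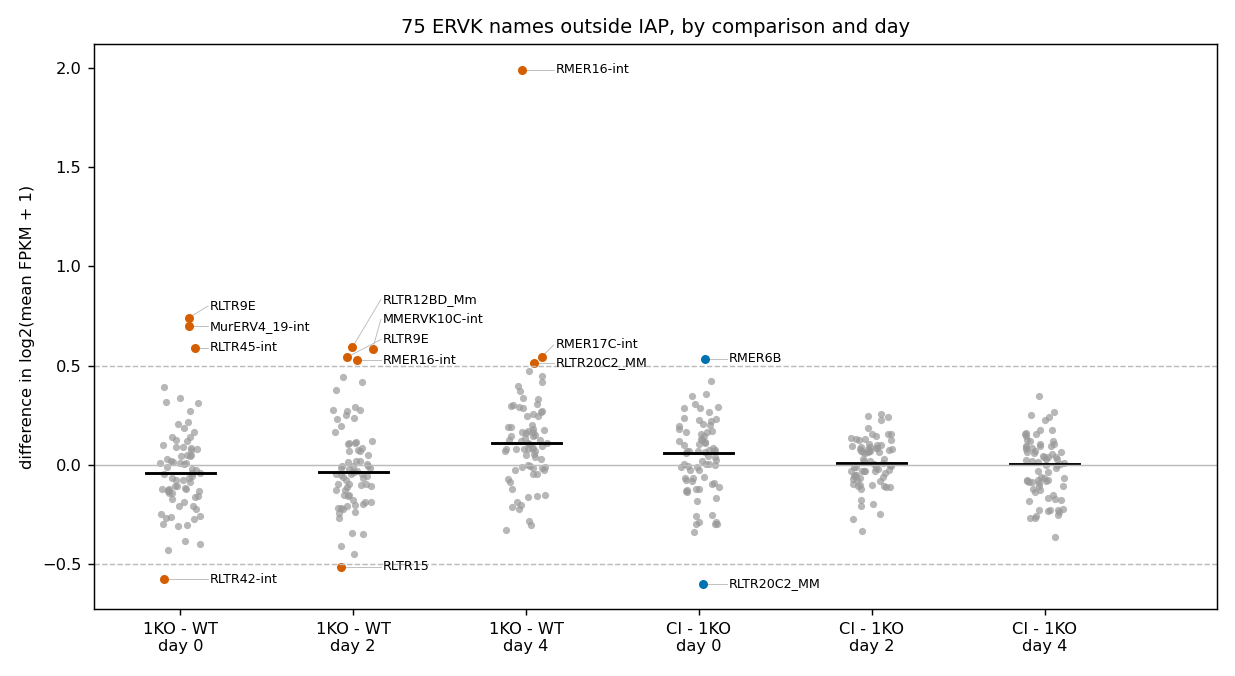
Difference in log2(mean FPKM + 1) for the 75 ERVK names outside IAP with 10 or more copies, between single libraries of the same day, with 1KO against WT on the left and CI (1KO+1CI) against 1KO on the right. Each point is a name, black bars are medians, dashed lines mark 0.5 and -0.5, and names past them are written out; RMER16-int at day 4 (1.99) stands far above all others.

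With the 3 days of a line taken as its samples, none of the 75 ERVK names with 10 or more copies passed the test between 1KO and WT, and 1 name with fewer copies did. The fit was made with limma over all 1042 names, with line and day as terms, 4 residual degrees of freedom and Benjamini-Hochberg adjustment over all names. For 1KO against WT, 0 of the 75 names had an adjusted p under 0.05 in either direction (0.192% of all names did), while 4 higher and 4 lower had an unadjusted p under 0.05 (5.33% each, against 4.51% higher and 5.76% lower of all names). The lowest adjusted p among the 75 in this limma fit was 0.233, for MMERVK10C-int with a difference of 0.46 (SE 0.12) and for RLTR12BD_Mm with 0.39 (SE 0.10). Such p-values measure how steady a difference was over the days of 1 culture series, not over cultures or clones. IAPEz-int, with 426 copies, stood at 2.24, 1.67 and 3.53 in 1KO against WT at days 0, 2 and 4, and it did not pass either, at a limma adjusted p of 0.227. RMER13B, a member name with 8 listed copies, did pass and was lower in 1KO by limma at -0.86 (SE 0.08, adjusted p = 0.0203), but without its highest copy it was at -0.32 (limma adjusted p = 0.536).

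MMERVK10C-int, the internal part of a provirus of this kind and the name with the most listed copies (92), was 1 of the 9 names that were higher in 1KO than in WT at all 3 days. Its mean level was 0.558, 0.933 and 0.803 FPKM at days 0, 2 and 4 in WT, 1.04, 1.90 and 1.41 in 1KO, and 0.951, 2.30 and 2.07 in 1KO+1CI. Every value of the mutant lines was above the WT value of its day. The ratio of 1KO to WT was 1.87, 2.03 and 1.76, and the log2 difference was 0.39, 0.58 and 0.42. Many copies took part: 72, 83 and 79 of the 92 copies were higher in 1KO at days 0, 2 and 4, and 61 (66.3%) were higher at all 3 days, against 12.4% of all copies in the table, while 1 was lower at all 3 days, against 18.4%. The number of copies with 1 FPKM or more went from 9 in WT to 22 in 1KO at day 0, from 16 to 39 at day 2 and from 13 to 33 at day 4. In the 77 copies whose values gave whole reads, 761, 1435 and 947 reads in WT stood against 1758, 2428 and 2155 in 1KO. Copies of a name share sequence and may share reads, so they are not separate measurements of it, here and in the counts of copies below.

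RMER16-int, another internal part with 48 copies, was near WT in 1KO at day 0 and far above it at day 4. Its mean level was 1.85, 2.51 and 2.14 FPKM in WT at days 0, 2 and 4, 2.03, 4.06 and 11.5 in 1KO, and 2.85, 4.37 and 13.8 in 1KO+1CI. Both mutant lines were far above WT at day 4, where their values were also the highest of their own line. The ratio of 1KO to WT was 1.10, 1.62 and 5.37, and the log2 difference was 0.09, 0.53 and 1.99, the largest of any of the 75 names at any day. Over the 3 days it had a limma difference of 0.87 (SE 0.38, adjusted p = 0.479). At day 4, 41 of the 48 copies were higher in 1KO, 27 of them by over 1 on the log2 scale, as were 4.32% of all 2476 member copies. The median copy was at 1.37, against -0.01 over all copies in the table.

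Copy 98 holds 23.0% of the FPKM of RMER16-int and did not follow the name as a whole at days 0 and 2. Its values in WT were 33.1, 40.3 and 46.0 FPKM at days 0, 2 and 4, those in 1KO 11.2, 18.4 and 153, and those in 1KO+1CI 10.1, 9.83 and 176. It was thus lower in both mutant lines at days 0 and 2 and higher at day 4. Without copy 98, the differences of the name in 1KO against WT were 0.38, 0.81 and 2.10. Copies 99 and 212, chosen after their values were seen, had 5.55 and 4.38 FPKM in WT and 2.06 and 2.09 in 1KO at day 0, and 6.13 and 5.34 in WT and 23.6 and 24.7 in 1KO at day 4.

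**Figure D2:**
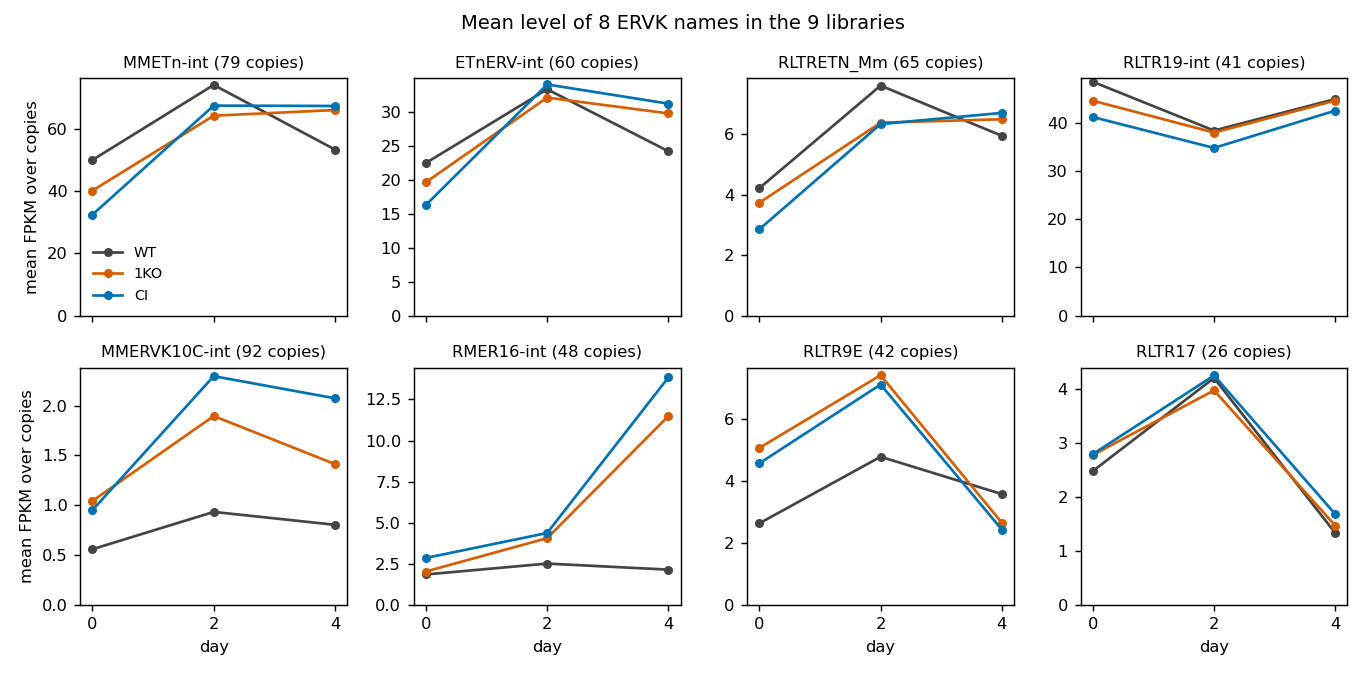
Mean FPKM over the listed copies of 8 ERVK names (vertical axis, from 0) at days 0, 2 and 4 (horizontal axis) in WT (grey), 1KO (orange) and CI (1KO+1CI, blue), each point 1 library. MMERVK10C-int was above WT in both mutant lines at each day, RMER16-int parted from WT by day 4, RLTR9E was above WT at days 0 and 2 and below it at day 4, and RLTR17 ran alike in the 3 lines.

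RLTR9E, an LTR with 42 copies, reversed its difference between the days. Its level was 2.64, 4.79 and 3.58 FPKM in WT, 5.08, 7.43 and 2.65 in 1KO, and 4.58, 7.13 and 2.43 in 1KO+1CI. Both mutant lines were above WT at days 0 and 2 and below it at day 4. The log2 difference of 1KO to WT was 0.74, 0.54 and -0.33, and 36, 33 and 15 of its 42 copies were higher in 1KO. Its highest copy, which held 31.9% of the FPKM, bore on day 4, where the difference was -0.10 without it, and less on day 0, where it was 0.89. The other names of the MMERVK9/RLTR9 group were MMERVK9C_I-int, MMERVK9E_I-int, RLTR9A and RLTR9D. All 5 names were higher in 1KO at day 0, 4 at day 2 and 2 at day 4, with medians of 0.32, 0.42 and -0.01. RLTR9A, the LTR name in the group that was higher each time, was at 0.33, 0.44 and 0.25, and at -0.10, 0.17 and 0.18 without its highest copy. MMERVK9C_I-int, the internal part with 47 copies, reached 0.42 at day 2 and was at 0.13 and -0.07 at days 0 and 4.

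Of the other names past the threshold, most were nearer to WT without their highest copy. RLTR45-int, an internal part with 24 copies, had 1.03, 1.09 and 0.939 FPKM in WT and 2.06, 0.955 and 1.14 in 1KO, and so stood apart from WT at day 0, with 1KO+1CI between them at 1.50. Its day 0 difference was 0.59, and 0.69 without the highest copy. MurERV4_19-int, an internal part with 10 copies, had 1.30, 3.63 and 1.70 FPKM in WT and 2.74, 4.61 and 2.40 in 1KO, which gave 0.70, 0.28 and 0.34, but with the median over copies in place of the mean its day 0 value was -0.24. RLTR12BD_Mm, an LTR with 11 copies, had 0.59 at day 2 with 74.9% of its FPKM in 1 copy, and 0.20 without that copy. RLTR42-int, at -0.58 on day 0, had 63.0% in 1 copy and was at -0.41 without it. RLTR15, at -0.51 on day 2, was at -0.30 without its highest copy. RLTR20C2_MM was at 0.52 and RMER17C-int at 0.54 on day 4, and they were at 0.43 and 0.34 without their highest copies. RLTR21 just missed the threshold at day 4, at 0.47, and was at 0.24 without its highest copy.

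**Figure D3:**
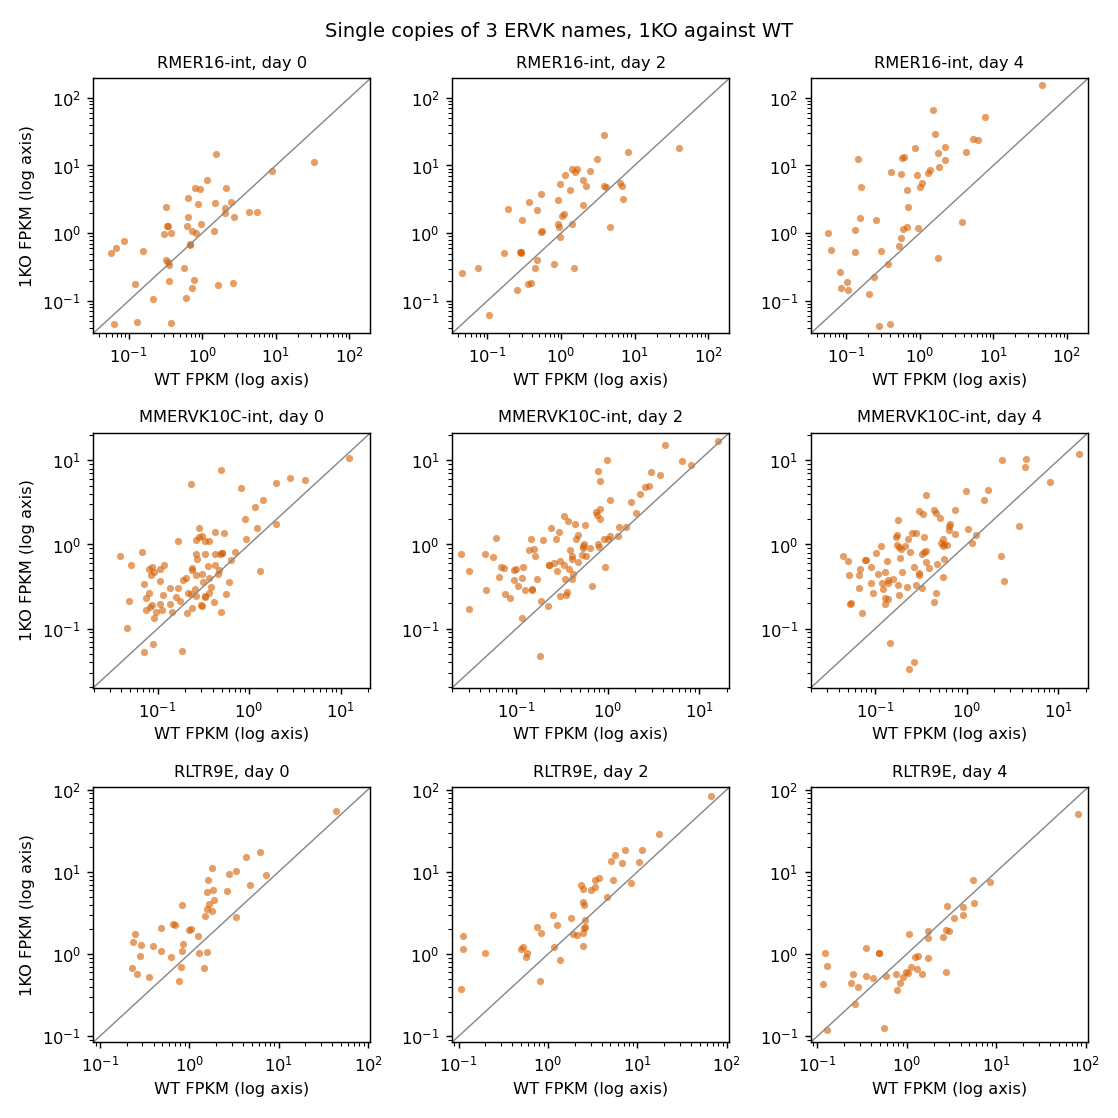
FPKM of single copies of RMER16-int (48 copies), MMERVK10C-int (92) and RLTR9E (42) in 1KO (vertical, log axis) against WT (horizontal, log axis) at days 0, 2 and 4, with the line of equal values. At day 4, 41 RMER16-int copies, 79 MMERVK10C-int copies and 15 RLTR9E copies lie above the line.

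Of the 5 ETn/MusD names, which include the most abundant of the 75 and the least, 4 were lower in 1KO than in WT at day 0 and all 5 were higher at day 4. MMETn-int, with 79 copies, had 49.9, 74.0 and 53.3 FPKM in WT, 40.1, 64.1 and 66.0 in 1KO, and 32.4, 67.4 and 67.3 in 1KO+1CI. WT was highest at days 0 and 2 and lowest at day 4. ETnERV-int, the internal part with 60 copies, had 22.4, 33.3 and 24.2 FPKM in WT, 19.6, 32.0 and 29.7 in 1KO, and 16.3, 34.0 and 31.1 in 1KO+1CI. At day 0 the order was again WT, 1KO and then 1KO+1CI, and at day 4 WT was lowest. RLTRETN_Mm, the ETn LTR with 65 copies, had 4.22, 7.61 and 5.95 FPKM in WT and 3.74, 6.38 and 6.50 in 1KO. ETnERV2-int and ETnERV3-int were scarce, at 0.702 and 0.417 FPKM on average. None of the 5 names passed the limma test between lines, and MMETn-int had a difference of -0.07 with an adjusted p of 0.909.

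For 1KO against WT the medians over these 5 names were -0.14, -0.20 and 0.29 at days 0, 2 and 4, with 1, 1 and 5 names higher. Relative to the shift of all repeats the medians were -0.01, -0.19 and 0.23, so that the day 0 median nearly vanished on that scale, with MMETn-int at -0.15. For 1KO+1CI against 1KO the medians were -0.26, -0.01 and 0.04, and the day 0 value was -0.40 relative to all repeats. All members of the group were higher in 1KO at day 4 by either scale. In MMETn-int itself 12, 18 and 76 of the 79 copies were higher in 1KO at days 0, 2 and 4, and in ETnERV-int 10, 27 and 54 of the 60. In the LTR RLTRETN_Mm 29, 23 and 34 of the 65 copies were higher, and its median copy at day 4 was at 0.01.

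A pair of names that begin with ERVB and the LTR RLTR13G followed the same course as these internal parts. ERVB4_1C-LTR_Mm had 28.1, 44.7 and 32.5 FPKM in WT, 25.8, 40.9 and 37.0 in 1KO and 21.5, 43.0 and 41.3 in 1KO+1CI. ERVB7_1-LTR_MM had 24.1, 33.8 and 24.6 FPKM in WT and 20.7, 28.9 and 30.4 in 1KO. RLTR13G had 22.3, 34.3 and 25.5 FPKM in WT, 20.7, 33.4 and 30.4 in 1KO and 16.7, 35.0 and 33.1 in 1KO+1CI. All 3 were lowest in 1KO+1CI at day 0 and higher in 1KO than in WT at day 4. In 1KO against WT at day 0 the median of the ERVB names was -0.16, and -0.01 relative to all repeats. That of the 3 RLTR13 names was -0.11, and 0.002 relative to all repeats, so that the day 0 difference nearly vanished on that scale. At day 4 the medians relative to all repeats were 0.18 (ERVB) and 0.19 (RLTR13). The other RLTR13 names, RLTR13D3A1 and RLTR13E, were at 1.27 and 0.837 FPKM on average.

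In most of the remaining groups the median stood close to WT, while single names lay farther off. The MMERVK10/RLTR10 group holds besides MMERVK10C-int the names RLTR10, RLTR10-int and RLTR10C, whose differences in 1KO against WT lay between -0.07 and 0.24 over the days. The 21 RMER names had medians of -0.04, -0.01 and 0.13 at days 0, 2 and 4, with 7, 10 and 16 higher in 1KO, and 12, 10 and 14 higher relative to all repeats. RMER16-int alone among them went past 1 on the log2 scale at any day. The lowest RMER values were those of RMER19C (-0.40, -0.41 and -0.18) and of RMER4A (-0.39, -0.06 and -0.01), with RMER17D at -0.45 on day 2. Without their highest copies RMER19C was at -0.12, -0.12 and 0.32 and RMER17D at 0.21 on day 2, so that RMER19C turned at day 4 and RMER17D at day 2. RLTR17 was at 0.12, -0.07 and 0.08 and RLTR17B_Mm at -0.16, -0.09 and -0.02. BGLII was at 0.10, 0.01 and -0.16, and the 3 MYSERV names had medians of 0.02, 0.10 and 0.08. RLTR19-int, second in abundance, was at -0.12, -0.02 and -0.01. RLTR18B was at -0.43 on day 0, and RLTR31D_MM (-0.28), RLTR49 (-0.30) and RLTR20B1 (-0.22) were among the lowest on day 4. Over the 18 internal parts the medians were 0.03, 0.08 and 0.17, and over the 57 LTRs -0.07, -0.05 and 0.11.

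With catalytically inactive DNMT1 in the 1KO cells, few of these names stood apart from 1KO. At day 0, RMER6B was over 0.5 (1 of 75, at 0.54, against 0.539% of all names) and RLTR20C2_MM was under -0.5 (1 of 75, at -0.60, against 1.35%). At day 2 none was over 0.5 or under -0.5, where 0.27% of all names were on either side, and at day 4 again none was, against 0.27% on either side. Relative to all repeats, RMER6B was at 0.47 on day 0. The medians over the 75 names were 0.06, 0.01 and 0.00 at days 0, 2 and 4, and 57, 72 and 68 names lay within 0.25 of 0 (76%, 96% and 90.7%, against 82.5%, 96.0% and 89.5% of the 371). Relative to all repeats these medians were -0.04, 0.005 and 0.03, so that the day 0 median turned. In the limma fit 0 of the 75 names passed in either direction (0% of all names), the lowest adjusted p was 0.816, and none of the 75 had an unadjusted p under 0.05, where 3.45% of all names were higher and 2.59% lower at that level. A p that misses the threshold does not show that the lines are alike, and the values that were farthest apart follow.

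MMERVK10C-int was higher in 1KO+1CI than in 1KO at days 2 and 4, with ratios of 1.21 and 1.47 and log2 differences of 0.19 and 0.35, and not at day 0 (-0.07). Of its 92 copies, 43, 61 and 66 were higher in 1KO+1CI at days 0, 2 and 4. RMER16-int was at 0.35, 0.09 and 0.25, with 16 of 48 copies higher at all 3 days (15% of all copies in the table were) and 1 lower at all 3 days (11.6% were). At day 0 the highest differences were those of RMER6B, RLTR40 (0.42), RMER12C (0.35) and RMER16-int, and the lowest those of RLTR20C2_MM, RMER17C2 (-0.34), MMETn-int (-0.30) and ERVB7_1-LTR_MM (-0.30). At day 2 the highest were RLTR10 (0.26), RLTR12C (0.25), MLTR11A (0.24) and RLTR20C1_MM (0.23), and the lowest RLTR20B1 (-0.33), MLTR25A (-0.27), RLTR22_Mur (-0.25) and MLTR11B (-0.21). At day 4 MMERVK10C-int was followed at the top by BGLII (0.27), RMER16-int and RLTR10-int (0.24), and RMER17C-int (-0.36), RLTR20C1_MM (-0.27), RLTR13D3A1 (-0.27) and RLTR11B (-0.26) were at the bottom. All of these lie within 0.5 apart from RMER6B and RLTR20C2_MM at day 0. With the median over copies in place of the mean, BGLII (-0.089), RLTR20C1_MM (0.23) and RMER17C-int (0.032) at day 4 and MLTR25A (0.12) at day 2 turned.

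At the level of single copies, 15 of the 2476 copies passed the limma test between 1KO and WT, and most of those that were higher belonged to RMER16-int. The fit was made over all 38385 copies. Of the member copies 12 were higher (0.485%, against 1.12% of all copies) and 3 were lower (0.121%, against 0.0599% of all). By name, 7 of the 12 were RMER16-int copies, 2 were MMERVK10C-int copies, and RLTRETN_Mm, MMETn-int and MMERVK9C_I-int had 1 each. The 3 lower copies were 1 each of RMER13B, RMER20B and RMER16-int. For 1KO+1CI against 1KO, 0 member copies passed in either direction (0.00261% of all copies were higher and 0.00261% lower), with 46 higher and 31 lower at an unadjusted p under 0.05 (1.86% and 1.25%, against 2.57% and 1.94% of all copies). Without day 0 or without day 4 none of the 15 passed, and without day 2 there were 5. Fewer samples enter such fits, and calls were lost over the whole table too. Of all 38385 copies, 452 passed with all days, and 0, 285 and 1 passed without day 0, day 2 and day 4. Over all 2476 copies, 16.2% were higher in 1KO at all 3 days and 13.5% were lower at all 3 days, against 12.4% and 18.4% of all copies in the table.

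**Figure D4:**
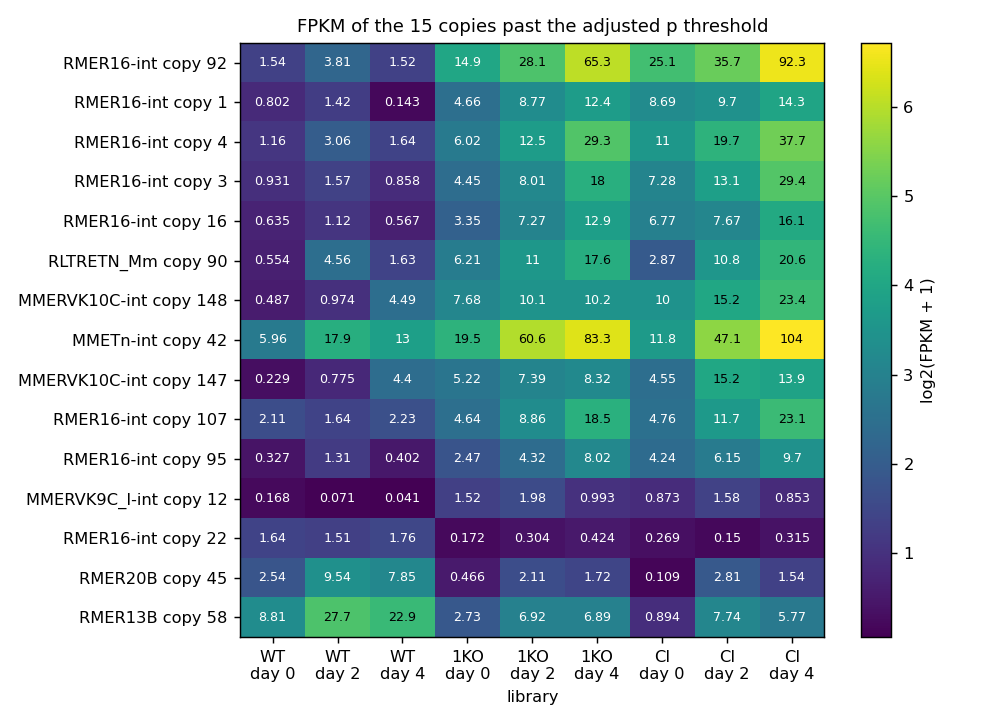
FPKM (written in each cell) and log2(FPKM + 1) (colour) in the 9 libraries for the 15 ERVK copies outside IAP with a limma adjusted p under 0.05 between 1KO and WT, ordered by the fitted difference. The 12 upper copies are higher in 1KO than in WT at each day and the 3 lower ones are lower at each day, as copies chosen by this difference. CI (1KO+1CI) is on the same side of WT as 1KO at each day, but not always near 1KO. MMERVK10C-int copy 148 at day 4, for example, is at 10.2 in 1KO and 23.4 in CI.

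RMER16-int copy 92 had the largest difference of any member copy. It had 1.54, 3.81 and 1.52 FPKM in WT, 14.9, 28.1 and 65.3 in 1KO and 25.1, 35.7 and 92.3 in 1KO+1CI. The mutant libraries all lay above the WT libraries, in a copy that was named for the size of its difference. The limma difference was 3.32 (SE 0.40, adjusted p = 0.0147). Copy 1 had 11, 23 and 2 reads in WT and 87, 123 and 188 in 1KO, where the ratio of FPKM at day 0 was 5.81, with a 95% exact binomial interval of 3.09 to 12.1 that covers counting error only. At day 4, on 2 reads in WT, its ratio was 86.9 (23.7 to 721). Copies 3, 4 and 16 had limma differences of 2.22, 2.32 and 2.17, all at an adjusted p of 0.019, and copies 95 and 107 had 1.76 and 1.79 at adjusted p values of 0.0342 and 0.0380. Copy 22 went the other way, with 1.64, 1.51 and 1.76 FPKM in WT and 0.172, 0.304 and 0.424 in 1KO, on 21, 23 and 23 reads against 3, 4 and 6. Copy 23, with 2.60, 4.69 and 3.72 FPKM in WT and 0.185, 1.23 and 1.45 in 1KO, had the same direction at a limma adjusted p of 0.0736.

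MMERVK10C-int copies 147 and 148, neighbours by copy number, behaved alike. Copy 148 had 0.487, 0.974 and 4.49 FPKM in WT, 7.68, 10.1 and 10.2 in 1KO and 10.0, 15.2 and 23.4 in 1KO+1CI. Copy 147 had 0.229, 0.775 and 4.40 FPKM in WT, 5.22, 7.39 and 8.32 in 1KO and 4.55, 15.2 and 13.9 in 1KO+1CI. Both were lowest in WT at day 0, and the day 4 WT value came nearest to the mutant lines. Their limma differences were 2.02 (SE 0.33) and 1.79 (SE 0.38), with adjusted p values of 0.019 and 0.0417. Whether the pair are parts of 1 provirus cannot be read from the table, which gives no positions.

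MMETn-int copy 42 set itself apart from the other copies of its name. It had 5.96, 17.9 and 13.0 FPKM in WT, 19.5, 60.6 and 83.3 in 1KO and 11.8, 47.1 and 104 in 1KO+1CI, which is 3.27, 3.39 and 6.39 times the WT value in 1KO, while the median copy of the name was at -0.26, -0.19 and 0.30 on the log2 scale. RLTRETN_Mm copy 90 had 0.554, 4.56 and 1.63 FPKM in WT and 6.21, 11.0 and 17.6 in 1KO, on 4, 39 and 12 reads against 61, 81 and 140, with a limma difference of 2.05 (adjusted p = 0.0244). Another copy of the same LTR, copy 28, was lower in 1KO at each day, with 4.29, 11.0 and 12.4 FPKM in WT and 0.407, 3.25 and 5.40 in 1KO, at a limma adjusted p of 0.0563. MMERVK9C_I-int copy 12 was the scarcest of the called copies in WT, at 0.168, 0.071 and 0.041 FPKM in WT and 1.52, 1.98 and 0.993 in 1KO. RMER13B copy 58 had 8.81, 27.7 and 22.9 FPKM in WT and 2.73, 6.92 and 6.89 in 1KO, and RMER20B copy 45 had 2.54, 9.54 and 7.85 in WT and 0.466, 2.11 and 1.72 in 1KO. RMER19C copy 84 was lower too, with 5.12, 12.3 and 8.81 FPKM in WT and 0.855, 5.34 and 2.32 in 1KO, at a limma adjusted p of 0.0831. The table has no positions, and reads that run into a copy from a host gene cannot be told apart from transcription of the element.

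For 1KO+1CI against 1KO the highest fitted differences were those of BGLII copy 40 (1.02), RLTR20C1_MM copy 111 (0.98), RLTR31D_MM copy 72 (0.94), RLTR17B_Mm copy 1732 (0.88) and RMER6A copy 38 (0.84). The lowest were those of RLTR15 copy 26 (-1.02), MMERVK9E_I-int copy 108 (-0.87), RLTR13C2 copy 76 (-0.86), RMER4A copy 53 (-0.85) and RMER17C2 copy 33 (-0.78). None of these 10 passed the limma test, where no member copy had an adjusted p under 0.995. Several rest on few reads: BGLII copy 40 had 5, 3 and 1 reads in 1KO and 18, 16 and 7 in 1KO+1CI, and RLTR15 copy 26 had 12, 14 and 4 against 1 in each library of 1KO+1CI. RMER6A copy 38 had more, with 67, 41 and 17 reads against 106, 73 and 39.

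More of the 75 names passed the test between days than between lines. As deposited, 62, 65 and 54 of them were higher at day 2 than at day 0 in WT, 1KO and 1KO+1CI, and relative to the shift of all repeats 46, 39 and 37 were. In the limma fit with the 3 lines as samples of a day, 10 of the 75 names rose from day 0 to day 2 (2.88% of all names did) and none fell (0.768% of all). From day 2 to day 4, 16 fell (7.97% of all) and none rose (1.82% of all), and from day 0 to day 4, 1 rose (1.73% of all) and 5 fell (3.36% of all). Relative to the shift of all repeats, none of the 75 rose from day 0 to day 2, 6 fell from day 2 to day 4, and 2 rose and 4 fell from day 0 to day 4. The day calls fell when a line was left out, where fewer samples enter the fit. Without 1KO or without 1KO+1CI each of these counts was 0. Without WT 0 rose from day 0 to day 2, and 1 rose and 5 fell from day 2 to day 4. From day 0 to day 4, 1 rose and 1 fell without WT.

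**Figure D5:**
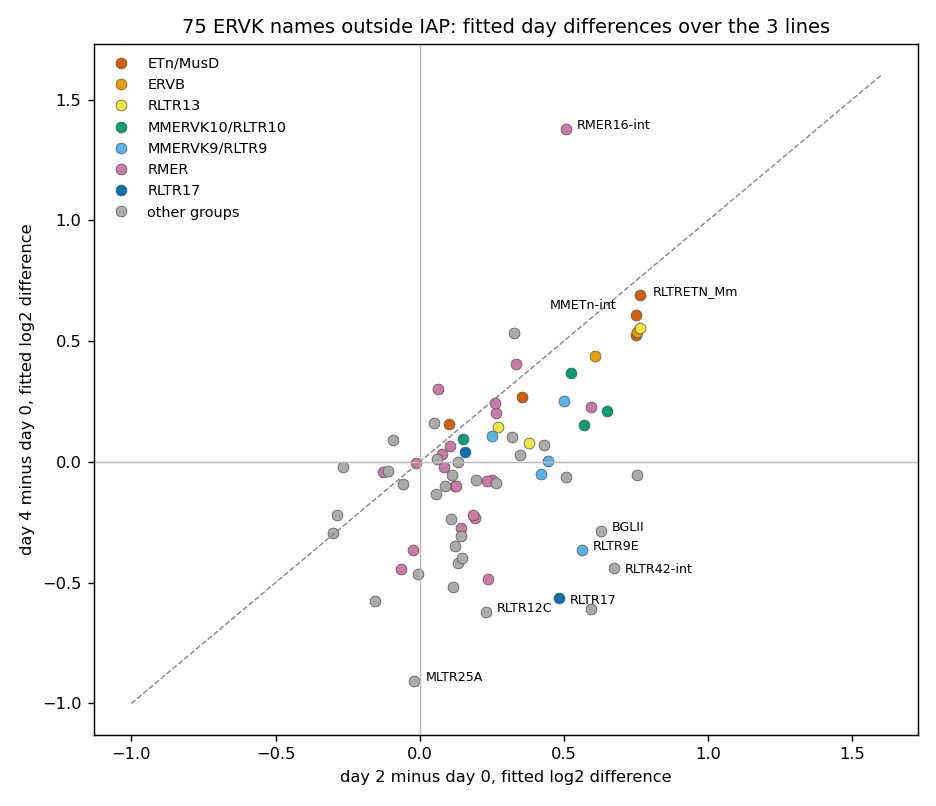
Fitted log2 difference of day 2 (horizontal) and of day 4 (vertical) to day 0 over the 3 lines, for the 75 ERVK names outside IAP, coloured by group of names; the dashed line marks equal values at both days. ETn/MusD, ERVB and RLTR13G points lie above 0 at both days, RMER16-int lies highest at day 4 (1.38), and MLTR25A lies lowest (-0.91).

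The names that rose at day 2 were RLTR13G (0.76, limma adjusted p = 0.0472), RLTRETN_Mm (0.76), ERVB4_1C-LTR_Mm (0.76), MurERV4_19-int (0.75), RLTR10 (0.65), BGLII (0.63), RMER19C (0.59), RLTR10-int (0.57), MRLTR33 (0.51) and RLTR17 (0.48). RLTRETN_Mm also passed from day 0 to day 4, at 0.69 by limma (adjusted p = 0.0337), where RLTR13G was at 0.55 (limma adjusted p = 0.0941) and ERVB4_1C-LTR_Mm at 0.54 (limma adjusted p = 0.0929). MMETn-int and ETnERV-int had differences of similar size at day 2, 0.75 each, with adjusted p values of 0.0639 and 0.0523 by limma. The 5 ETn/MusD names had median differences by day 2 of 0.55, 0.64 and 0.93 in WT, 1KO and 1KO+1CI, and by day 4 of 0.10, 0.58 and 0.90. Relative to all repeats these were 0.34, 0.30 and 0.74 at day 2 and 0.23, 0.49 and 1.00 at day 4. The lines began from different day 0 levels, which carries into each of these values.

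The LTR RLTR17, with 26 copies, showed the other course, up at day 2 and down at day 4 alike in the 3 lines. It had 2.48, 4.21 and 1.33 FPKM in WT, 2.78, 3.98 and 1.47 in 1KO, and 2.80, 4.26 and 1.68 in 1KO+1CI. The libraries of day 4 were all below those of day 0, and those of day 2 all above. From day 2 to day 4 it fell by 1.05 on the log2 scale (SE 0.09, limma adjusted p = 0.0105). RLTR20B1 and RLTR42-int fell furthest, by 1.20 and 1.11, with limma adjusted p values of 0.0210 and 0.0236, and BGLII, MLTR25A, RLTR12C and MurERV4_19-int fell by 0.91, 0.89, 0.85 and 0.81. MLTR25A, RLTR12C, RLTR11A2, RLTR17 and RLTR11A were also below day 0 at day 4, by limma at -0.91, -0.62, -0.58, -0.56 and -0.52. RMER16-int had the highest day 4 value against day 0 (1.38) but by limma an adjusted p of 0.105, with WT at 1.85 and 2.14 FPKM on these days.

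Genes that act in silencing endogenous retroviruses were listed separately, and 29 of the 30 were found in the gene table. In 1KO against WT, 6 were over 0.5 and 1 under -0.5 at day 0 (21.1% of all genes were past either), 5 and 2 at day 2 (14.3%), and 1 and 3 at day 4 (12.9%). In 1KO+1CI against 1KO, 1 and 1 were past the threshold at day 0 (6.05%), 1 and 0 at day 2 (3.99%) and 1 and 1 at day 4 (7.8%), Dnmt1 itself among them each time. The corepressor Trim28 had 453, 512 and 414 FPKM in WT and 679, 548 and 384 in 1KO, and the H3K9 methyltransferase Setdb1 had 26.3, 32.1 and 24.7 in WT and 34.2, 32.0 and 23.4 in 1KO. Trim28 was thus at 0.58 in 1KO against WT on day 0 and within 0.11 later, and Setdb1 was highest at 0.36 on day 0. Dnmt3l, a cofactor of the de novo methyltransferases, had 41.3, 144 and 42.9 FPKM in WT, 203, 286 and 41.0 in 1KO and 203, 304 and 53.7 in 1KO+1CI, and so was above WT at days 0 and 2 in both mutant lines and level with 1KO in 1KO+1CI. Zfp809, a zinc-finger protein that recruits TRIM28 to retroviral sequence, had 8.44, 22.0 and 9.43 FPKM in WT and 16.3, 27.4 and 10.7 in 1KO. The other listed Zfp genes did not follow it: in 1KO against WT, Zfp932 was at -0.13, -0.15 and -0.30 and Zfp819 at 0.11, -0.58 and -0.58. Dnmt3a was at 0.28, 0.64 and -1.08, and Sumo2 at 0.45, 2.24 and 2.41. In 1KO+1CI against 1KO, Sumo2 was at -3.42 on day 0. The part of these genes in the repeat levels was not tested.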

How the data were processed

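RNA-seq libraries of 3 ESC lines at 3 days, 1 for each combination, were analysed. The deposited FPKM values entered without change. To make them the authors ran Trim Galore, HISAT2 (against mm10), SAMtools and analyzeRepeats.pl of HOMER in that order. Not given in the sources used here are versions, annotation, the strand setting and how multiply mapped reads were handled, and shared reads can move between copies of a name. No columns belong to other samples. The members, lists and thresholds were chosen with earlier results of these data known.

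The level of a name was log2 of its mean FPKM over listed copies plus a pseudocount of 1, with no filter on low values. A difference between single libraries has no replicate error and no test. The size of the 0.5 threshold is that of the study for repeat families, but both signs were counted in each comparison, on the scale with the pseudocount. Line and day effects were fitted with limma (version 3.58.1, trend on, 4 residual degrees of freedom) over all 1042 names or all 38385 copies, two-sided, with Benjamini-Hochberg adjustment and a threshold of 0.05. In the simulated data each made difference was equal at each day, and 842 of 1042 names were left unchanged. There the line fit called 56% of names made to differ by 0.5 on the log2 scale and 86% of those by 1. Of copies made to differ by 0.5, 1 and 2 it called 2%, 10% and 62%, so that it misses many changes of single copies. The real fit of 1KO against WT called 2 of 1042 names. It did not call IAPEz-int at 2.48 (SE 0.557, limma adjusted p = 0.227), so the simulated shares for names do not carry over to it. The 24 member entries that share a name and copy number were kept. Named in the text are the 10 highest names, the 4 highest and 4 lowest at each day in both comparisons, names by group, the 5 highest copies and the 5 copies at either end of the fits, called copies, and a few more chosen after their values were seen.

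Whole reads were recovered from steps in the FPKM values for 97.1% of the 37593 copies above 0.05 FPKM in every library, with tolerances of 0.0006 FPKM or 0.04%, and for 2222 of 2416 such member copies. The absolute depth assumes that 1 step is 1 read. Intervals are exact 95% Clopper-Pearson intervals on reads and cover counting error only. Sequences and positions of the copies were not used here. Python 3.11.15 with pandas 2.3.3 and scipy 1.17.1 was used.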

Additional observations from a re-analysis of the deposited data

Results flagged for a closer look

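In 8 cases a name was past 0.25 in one direction at one day and past -0.25 in the other at another day under the same comparison of lines. With 1 library for each line and day, the difference between the days was not tested. In 1KO against WT, RLTR9E was at 0.74 on day 0 and -0.33 on day 4, a gap of 1.07 on the log2 scale, and its day 4 value was -0.10 without its highest copy. RLTR42-int was at 0.29 on day 4 and -0.58 on day 0 (gap 0.867), RLTR20C2_MM at 0.52 on day 4 and -0.34 on day 2 (gap 0.859), RMER17D at 0.31 on day 0 and -0.45 on day 2 (gap 0.761), RLTR21 at 0.47 on day 4 and -0.27 on day 0 (gap 0.745), MMETn-int at 0.30 on day 4 and -0.31 on day 0 (gap 0.612), and RMER12B at 0.25 on day 2 and -0.26 on day 0 (gap 0.514). In 1KO+1CI against 1KO, RMER17C-int was at 0.29 on day 0 and -0.36 on day 4 (gap 0.651). RMER17D held 52.6% of its FPKM in 1 copy, and without it was at 0.02 on day 0 and 0.21 on day 2.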

How the results depend on the processing

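None of the 75 names with 10 or more copies passed the limma test between lines under any of the 12 alternatives. RMER13B, with 8 copies, kept its direction and lost its call without the day term (adjusted p = 0.299), with the median over copies (0.289), without the highest copy (0.536) and without any 1 day (0.181 to 0.466). Names past the threshold, summed over the 3 days (10 over 0.5 and 2 under -0.5 in 1KO against WT, 1 and 1 in 1KO+1CI against 1KO), became 24 and 9, and 4 and 3, with a pseudocount of 0.1; 26 and 10, and 9 and 4, with 0.01; and 6 and 4, and 3 and 3, with the median over copies. Scaled by repeats, those under -0.5 in 1KO and those over 0.5 in 1KO+1CI became 0. With the median over copies, 3 names past the threshold turned: MurERV4_19-int at day 0 to -0.24, RLTR12BD_Mm at day 2 to -0.045 and RLTR15 at day 2 to 0.075. Of named values inside it, RMER17D at day 2 turned to 0.13 in 1KO against WT, and in 1KO+1CI against 1KO so did BGLII at day 4 (-0.089), MLTR25A at day 2 (0.12), and RLTR20C1_MM and RMER17C-int at day 4 (0.23 and 0.032). The 12 copies higher in 1KO became 21 with a pseudocount of 0.1, and 0 to 5 when a day was left out, where the 3 lower copies became 0. Of day calls, the 10 names higher at day 2 than at day 0 became 0 without any 1 line, 0 scaled by repeats and 30 when only names with 10 or more copies were fitted, with 1 then lower. From day 0 to day 4, the 1 higher became 2 with a pseudocount of 0.1, 0 to 1 without a line, 2 scaled by repeats and 11 with names of 10 or more copies, and the 5 lower became 0 to 1 without a line and 14 with those names. From day 2 to day 4, the 16 lower became 0 to 5 without a line, 6 scaled by repeats and 34 with those names, and the 0 higher became 0 to 1 without a line, 1 scaled by repeats and 1 with those names. The last 2 alternatives for days were chosen after seeing the data. The cause was not tested, save that fewer samples or names enter some fits. Low counts limit single copies: 53.4% of member copies with recovered reads had a median under 10 reads. No paired analysis was possible because each line and day has 1 library, so no replicate numbers are shared; the day term already compares lines within a day.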
